A study of Mus musculus with 6 samples.

Results

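The genes described here are 32 mouse genes of DNA replication and S phase, taken as the entries with those symbols in 6 gene count tables that list 24421 genes each. All 32 were found, and all 32 were among the 15906 genes that passed the filter on low counts and were tested. They had 132 to 6234 read pairs in every library. The libraries are RNA-seq of oligodendrocyte progenitor cells (OPCs), which divide and give rise to the myelin-forming oligodendrocytes. The controls are 3 libraries of the genotype Prrc2bf/f, with floxed Prrc2b alleles and no Cre named, and the knockouts are 3 libraries of the genotype Prrc2bf/f; Olig2-Cre, so that both groups share the floxed alleles. Per the labels' protocols, cells of both groups were taken from the cortex of C57BL/6J pups at postnatal day 4. The panning used dishes coated with GalC antibody, then with O4 antibody, and the purified cells were grown in medium for proliferation that held PDGF-AA, bFGF and other factors. The series' design text speaks of brain tissue at the same age instead. Olig2-Cre acts in cells of the Olig2 lineage. Cells with Olig2-Cre and intact Prrc2b were not analysed here, so effects of Cre and of Prrc2b loss cannot be told apart. The labels do not say how many animals a library holds or whether replicates came from separate animals, so p-values measure the spread between these libraries, which may be technical.

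A chromosome is copied once in a cell cycle. In G1 phase the origin recognition complex, Cdc6 and Cdt1 load rings of Mcm2 to Mcm7 onto origins, a step called licensing. At the start of S phase, Cdc45 and the GINS complex join the rings to make the active helicase, and polymerases held by the Pcna clamp copy the strands. Many of these genes are transcribed at the passage from G1 to S phase by E2F factors, and their transcripts are commonly used to recognise dividing cells. OPCs are the main dividing cells of the postnatal brain outside its stem cell niches, and they keep dividing in culture in response to PDGF.

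The promoters show what the genes share in sequence. RefSeq promoters (GRCm38.p6, 250 bases before to 50 after the start site) were found for 27 of the 32 genes, and Mcm4, Gins1, Gins2, Exo1 and Ccne2 were not matched. The letters TTTCCCGC, TTTCGCGC, TTTGCCGC or TTTGGCGC, forms of the E2F consensus, were searched on both strands. At least 1 match was present in 12 of the 27 genes (44.4%), against 510 of 11942 tested genes with a promoter (4.27%). Matches to 2 of the spellings overlap in Mcm5 and Mcm6. The CCAAT box (CCAAT) was present in 18 of the 27 genes (66.7%), against 42.3% of tested genes. The cell cycle homology region (TTTGAA), a sequence known from genes of G2 and mitosis, was present in 3 of the 27 (11.1%), against 14.2% of tested genes. In a list of 36 genes of G2 and mitosis, of which 32 had promoters, the E2F letters were present in 1 (3.12%), TTTGAA in 24 (75.0%) and CCAAT in 25 (78.1%), so that the lists were alike in the CCAAT box and not in the other letters. These matches describe letters in a window and not bound sites.

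The stretches below are those E2F matches that lie before the start site of the RefSeq promoter table, written 5′ to 3′ on the strand of the gene, with the matched letters in capitals. All such stretches are shown. Of their genes, Mcm6, Mcm7, Pola1 and Uhrf1 are among the 6 with the smallest p between libraries of different number, as given further on. Cdc6 and Mcm5 also passed in that test, and Orc1 and Dtl did not. Rrm2, which had the smallest p of all the genes described here, had no E2F match, and that of Clspn lay after the start site. The 4 stretches of Cdc6, Mcm7, Orc1 and Uhrf1 overlap the gene as GENCODE bounds it, since GENCODE has a start further upstream.
Orc1 (chr4:108579416-108579445, plus strand, match 27 bases before the RefSeq start): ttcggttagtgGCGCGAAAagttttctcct
Cdc6 (chr11:98908002-98908031, plus strand, match 138 bases before the RefSeq start): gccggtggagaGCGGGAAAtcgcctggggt
Mcm5 (chr8:75109347-75109376, plus strand, match 153 bases before the RefSeq start): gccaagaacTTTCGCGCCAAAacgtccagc
Mcm6 (chr1:128359795-128359824, minus strand, match 110 bases before the RefSeq start): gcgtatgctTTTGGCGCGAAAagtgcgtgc
Mcm6 (chr1:128359734-128359763, minus strand, match 47 bases before the RefSeq start): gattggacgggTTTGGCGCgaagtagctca
Mcm7 (chr5:138172030-138172059, minus strand, match 165 bases before the RefSeq start): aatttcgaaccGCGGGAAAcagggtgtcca
Pola1 (chrX:93632275-93632304, minus strand, match 138 bases before the RefSeq start): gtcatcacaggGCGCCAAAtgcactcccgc
Uhrf1 (chr17:56304117-56304146, plus strand, match 185 bases before the RefSeq start): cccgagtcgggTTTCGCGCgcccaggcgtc
Dtl (chr1:191575545-191575563, minus strand, match 8 bases before the RefSeq start): cgtgacgtcagTTTGGCGC

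Gene counts summed to between 26015604 and 28114968 read pairs per library. Values below are CPM, the read pairs of a gene scaled to the total gene count of its library. Prrc2b transcript, the targeted gene, had 928, 1080 and 931 CPM in control libraries 1 to 3 and 653, 826 and 771 CPM in knockouts 1 to 3, so that the groups did not overlap. Its log2 difference was -0.41 both without a replicate block (SE 0.13 and edgeR adjusted p = 1.00) and with one (SE 0.06 and edgeR adjusted p = 0.00688). Libraries with the same number resembled each other. The numbers were therefore taken to pair the libraries. Each comparison was fitted without and with the replicate number as a block. OPC markers (9 genes, among them Pdgfra and Cspg4, all present in every library) summed to between 2141 and 4489 CPM. The libraries also held neuronal precursor markers (11 genes, 1696 to 3755 CPM), neuron markers (6 genes, 1901 to 2482 CPM) and astrocyte markers (8 genes, 1307 to 2879 CPM). In such bulk samples, fewer cells in S phase and less of a transcript per cell cannot be told apart.

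As a group, the DNA replication and S phase genes stood at the same level in controls and knockout libraries within the spread of the replicates. The sum over the 32 genes was 1927, 1755 and 1289 CPM in control libraries 1 to 3 and 1828, 1678 and 1386 CPM in knockouts 1 to 3. The mean was 1657 ± 330 CPM in controls and 1631 ± 225 CPM in knockouts (SD and n = 3). The groups overlapped fully, and the lowest library of each group was number 3. The knockout was at 0.949 and 0.956 of the control in pairs 1 and 2 and at 1.08 of it in pair 3. By gene, 12 of the 32 were higher in the knockout in pair 1, 11 in pair 2 and 26 in pair 3.

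**Figure D1:**
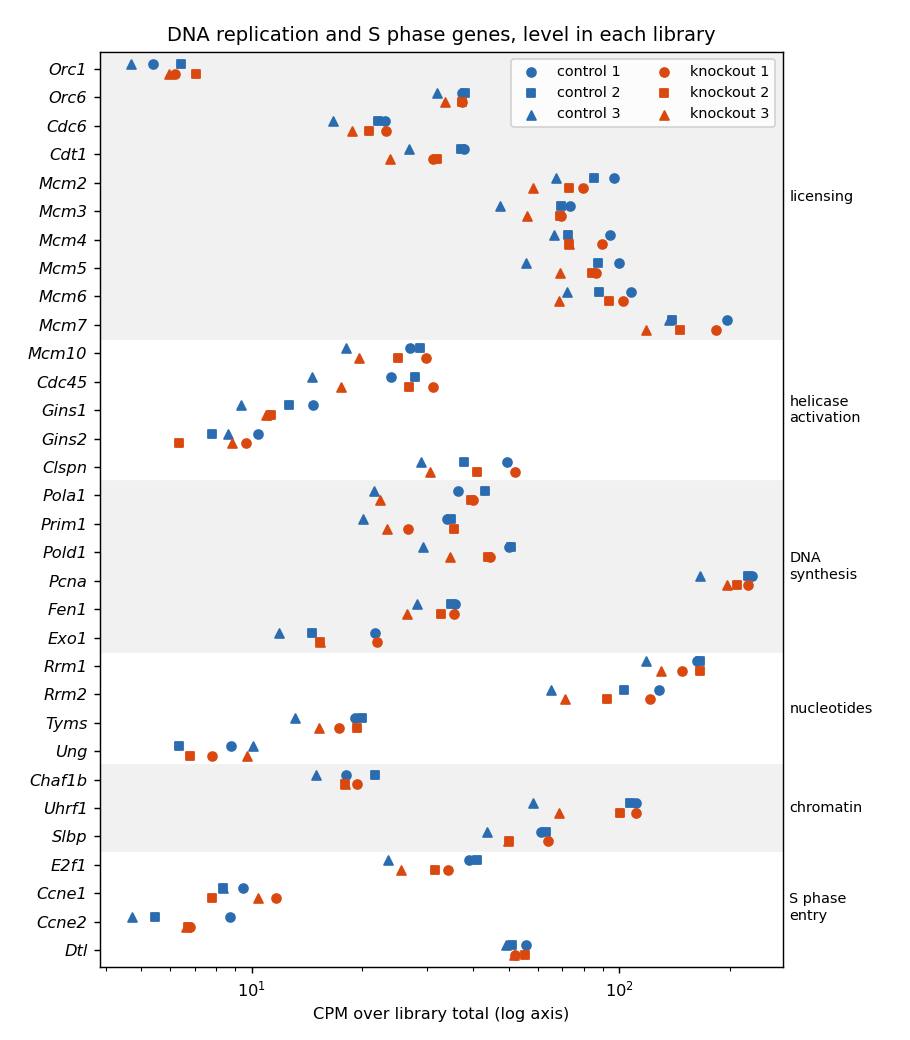
Level of each of the 32 genes in CPM (log axis) in the 3 control (blue) and 3 knockout (orange) libraries, with the replicate number as the symbol and the genes grouped by role. For most genes the triangles (number 3) lie to the left in both colours, while blue and orange symbols of the same shape lie close together, as for Uhrf1 at 58.1 and 68.4 CPM in number 3 against 101 to 111 CPM in the others.

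The genotype comparison asks whether replication transcripts differ in the knockout libraries. Prrc2b transcript remained in these at 0.704, 0.765 and 0.828 of the control in pairs 1 to 3. These are counts over the whole gene, so transcript with and without the floxed part cannot be told apart. Nor can transcript from cells inside and outside the Olig2 lineage. Without the block, 0 of the 32 genes passed edgeR's quasi-likelihood test (adjusted p under 0.05), as did 0% of all tested genes. In the same test 0 of the 32 had an unadjusted p under 0.05, against 274 of all 15906 tested genes. DESeq2 and limma-voom also called 0 of the 32. With the block, 0 of the 32 genes rose and 1 fell, against 1.57% and 2.23% of all 15906 tested genes (3.80% in either direction), so that the share of calls was near that background. The median log2 fold change of the 32 genes with the block was -0.01, against 0.00 over all tested genes, and with library totals in place of TMM scaling it was 0.02. The groups overlapped for all 32 genes, while among tested genes 3.31% had every knockout value above the controls and 2.80% had every one below. Higher in all 3 pairs were Orc1, Clspn and Exo1 (23.9% of all tested genes were), and lower in all 3 pairs were Cdt1, Mcm2 and Fen1 (16.0% of all tested genes were).

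The intervals of the genotype fits show how large a change could have been missed. With the block, the 95% interval of the log2 fold change lay within 0.5 of 0 for 30 of the 32 genes, against 64.6% of all tested genes. The exceptions were Orc1, whose interval reached from -0.17 to 0.57, and Ccne2, at -0.33 to 0.54, both among the least abundant of the genes. For Pcna the interval was -0.13 to 0.15 and for Rrm1 it was -0.15 to 0.10. These intervals rest on the spread left after the block, with 2 residual degrees of freedom per gene shared across genes. They hold only if the numbers pair the libraries, which was read from these data. Without the block the intervals were wider, and for most of the 32 genes they reached beyond 0.5 from 0. They were -0.36 to 0.36 for Pcna, -0.45 to 0.38 for Rrm1, -0.80 to 0.62 for Rrm2 and -0.60 to 0.91 for Cdc45.

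**Figure D2:**
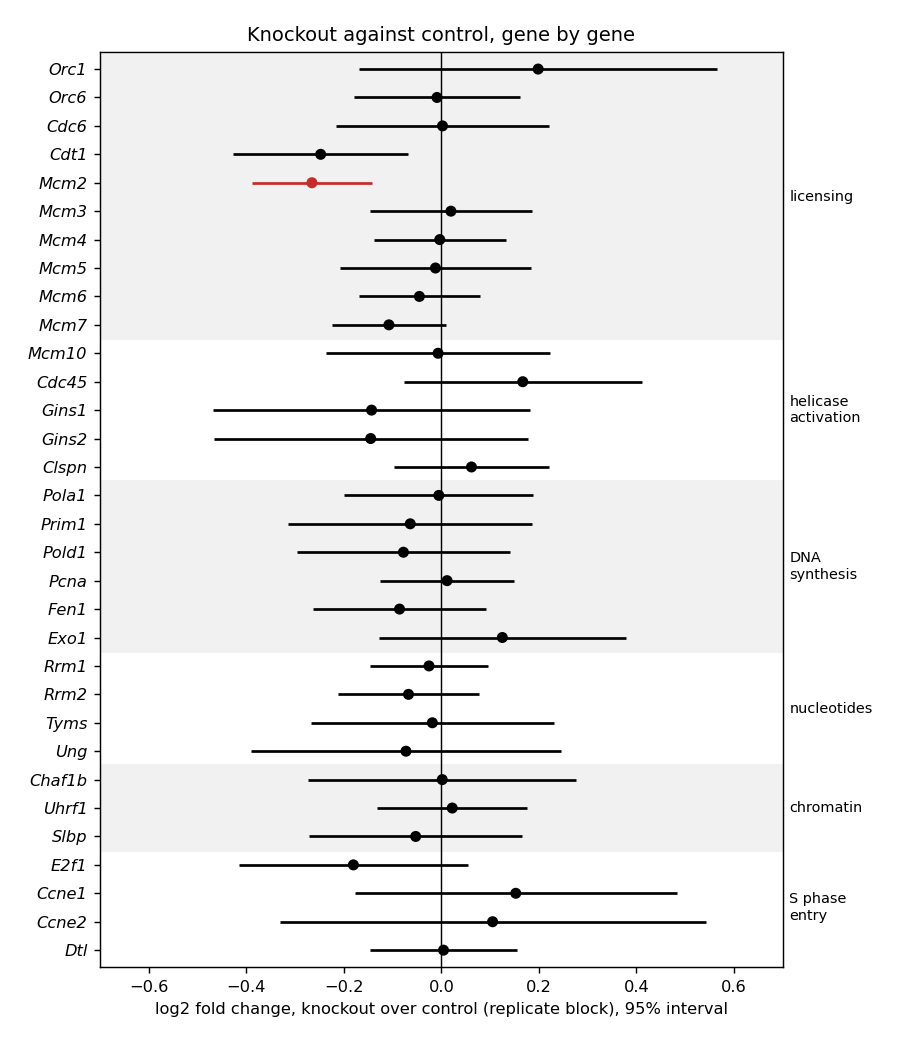
Log2 fold change of the knockout over the control with the replicate block (points) and its 95% interval (lines) for each of the 32 genes, grouped by role. Only Mcm2 (red, -0.27) passed at an adjusted p under 0.05; the next largest fall, Cdt1 at -0.25, and the largest positive value, Orc1 at 0.20, did not.

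Among the licensing genes, Mcm2 fell with the block and the other subunits of its ring did not pass. Mcm2 (ENSMUSG00000002870.8, chromosome 6 from 88883474 to 88898780, minus strand, GRCm38) encodes a subunit of the replicative helicase that also binds histones. It stood at 96.9, 85.5 and 67.0 CPM in control libraries 1 to 3 and at 79.6, 73.0 and 58.2 CPM in knockouts 1 to 3. The knockout was lower in every pair, yet control library 3 was below knockout libraries 1 and 2, so the groups overlapped. The blocked log2 difference was -0.27 (SE 0.05 and edgeR adjusted p = 0.0308), a level of 0.832 of the control, and without the block it was -0.27 (SE 0.18 and edgeR adjusted p = 1.00). The call was lost when any pair was left out (edgeR adjusted p = 0.128, 0.102 and 0.0849 without number 1, 2 and 3), with library totals (0.0512) and among genes of at least 5 CPM (0.0572). The direction was the same in all of these.

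Several marker lists moved with genotype in the same blocked test, where 1.57% of all tested genes rose and 2.23% fell. The part of these lists in the Mcm2 difference was not tested. Endothelial markers rose in 8 of 9 genes, with sums of 19.3 to 88.4 CPM in controls and 45.3 to 307 CPM in knockouts. Ependymal and choroid plexus markers rose in 4 of 6 (338 to 1882 and 807 to 2792 CPM, mostly Ttr) and astrocyte markers in 4 of 8 (1307 to 2406 and 1575 to 2879 CPM). Neuronal precursor markers fell in 6 of 11, with sums of 2038 to 3755 CPM in controls and 1696 to 3349 CPM in knockouts. Neuron markers fell in 1 of 6 (Tubb3), with sums of 2038 to 2482 CPM in controls and 1901 to 2424 CPM in knockouts. Pericyte and fibroblast markers rose in 2 of 8. Of the 9 OPC markers 0 were called, with 4 blocked log2 differences above 0 and 5 below. Olig2 had the lowest of these (-0.50, SE 0.12 and edgeR adjusted p = 0.0533) and was lower in all 3 pairs. None of the genes of these lists was at 0 in any library.

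Of the other licensing genes, Cdt1 came nearest to a call. Cdt1, the loading factor that is destroyed when S phase begins, had 37.7, 37.1 and 26.8 CPM in controls and 31.2, 31.9 and 23.8 CPM in knockouts 1 to 3. It was lower in all 3 pairs, with a blocked log2 difference of -0.25 (SE 0.08) that missed the threshold (edgeR adjusted p = 0.133). Mcm7 had the highest level per length of the licensing genes, at 53.2 ± 11.5 CPM per kilobase of its principal transcript in controls and 50.3 ± 11.1 in knockouts (SD and n = 3). Its CPM were 197, 139 and 136 in controls and 183, 146 and 118 in knockouts 1 to 3, with library 1 highest in both groups. Its blocked log2 difference of -0.11 (SE 0.05) missed the threshold (edgeR adjusted p = 0.319). Exons of Mcm7 overlap 2 genes on the other strand, Cops6 and Ap4m1, and those of the microRNAs Mir25 and Mir93, so its count is less certain. Mcm3, Mcm4, Mcm5 and Mcm6, which form the same ring as Mcm2 and Mcm7, had blocked log2 differences of 0.02, -0.00, -0.01 and -0.05. The origin recognition subunits Orc1 and Orc6 were at 0.20 (SE 0.16) and -0.01 (SE 0.08), and the loading ATPase Cdc6 was at 0.00 (SE 0.10).

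None of the 5 genes of helicase activation and fork protection passed. Cdc45, which joins the ring to form the active helicase, had 23.9, 27.8 and 14.6 CPM in controls and 31.1, 26.7 and 17.5 CPM in knockouts 1 to 3. The groups overlapped, and library 3 was lowest in each. Its blocked log2 difference was 0.17 (SE 0.11 and edgeR adjusted p = 0.480). The GINS subunits Gins1 and Gins2 were at -0.14 (SE 0.14) and -0.14 (SE 0.14), and Mcm10, which helps to activate the ring, was at -0.01 (SE 0.10). Clspn, encoding the fork protein Claspin that relays checkpoint signals, had 49.6, 37.7 and 28.8 CPM in controls and 51.9, 41.0 and 30.4 CPM in knockouts 1 to 3. It was higher in the knockout in all 3 pairs by little (0.06, SE 0.07 and edgeR adjusted p = 0.709), while its level in each group differed by number.

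The 6 genes of strand synthesis did not pass either. Pcna, the sliding clamp, had the highest level of all 32 genes, at 136 ± 23.3 CPM per kilobase in controls and 138 ± 9.29 in knockouts (SD and n = 3). Its CPM were 229, 224 and 165 in controls and 224, 209 and 196 in knockouts 1 to 3, which overlap, and its blocked log2 difference was 0.01 (SE 0.06 and edgeR adjusted p = 0.947). The genome holds 2 named Pcna pseudogenes. Pairs without a unique alignment are in a summary entry and not in the gene counts, so some Pcna pairs could be missing from its count. Pola1, the catalytic subunit of polymerase alpha on the X chromosome, had 36.4, 43.2 and 21.5 CPM in controls and 40.0, 39.6 and 22.3 CPM in knockouts 1 to 3. Genotype made little difference to it (blocked log2 difference -0.01, SE 0.09), and both number 3 libraries were well below the others. Prim1 (primase), Pold1 (polymerase delta) and Fen1 (the flap nuclease that trims Okazaki fragments) had blocked log2 differences of -0.06, -0.08 and -0.09, and Exo1, an exonuclease of mismatch repair, was at 0.13.

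Genes of nucleotide supply and uracil removal were level between genotypes. Rrm2, the subunit of ribonucleotide reductase whose abundance follows S phase, had 129, 103 and 65.2 CPM in controls and 121, 92.5 and 71.0 CPM in knockouts 1 to 3. The order of the numbers was the same in both groups, and the blocked log2 difference was -0.07 (SE 0.06 and edgeR adjusted p = 0.647). Rrm1, the large subunit, was at -0.03 (SE 0.05), the thymidylate synthase gene Tyms at -0.02 (SE 0.11) and the uracil glycosylase gene Ung at -0.07 (SE 0.14). Tyms has a named pseudogene.

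The chromatin genes and the genes of S phase entry gave the same picture. Slbp, which binds the stem-loop of replication-dependent histone mRNAs, had 61.3, 63.1 and 43.7 CPM in controls and 64.1, 50.2 and 49.9 CPM in knockouts 1 to 3. The groups overlapped, with a blocked log2 difference of -0.05 (SE 0.10 and edgeR adjusted p = 0.833). Uhrf1, which brings maintenance DNA methylation to new strands, had 111, 107 and 58.1 CPM in controls and 111, 101 and 68.4 CPM in knockouts 1 to 3. It differed little by genotype (0.02, SE 0.07) and was lowest in number 3 of both groups. Chaf1b, a subunit of the histone chaperone CAF-1, was at 0.00 (SE 0.12). Dtl, part of the ubiquitin ligase that removes Cdt1 in S phase, had 55.8, 51.2 and 49.0 CPM in controls and 52.0, 55.5 and 51.7 CPM in knockouts 1 to 3. Its blocked log2 difference was 0.00 (SE 0.07 and edgeR adjusted p = 0.981). The transcription factor gene E2f1 was at -0.18 (SE 0.10 and edgeR adjusted p = 0.420), and the cyclin E genes Ccne1 and Ccne2 were at 0.15 (SE 0.15) and 0.11 (SE 0.19).

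Levels per length set the genes apart by far more than genotype did. In control libraries they ran from 1.83 CPM per kilobase for Orc1 to 136 for Pcna, with a median of 12.6, and in knockouts the median was 12.2. After Pcna came Mcm7, Rrm2 at 45.1 ± 14.5 and Rrm1 at 37.2 ± 6.67 CPM per kilobase in control libraries (SD and n = 3). Within a library, Mcm7 was above Rrm1 in all 6 libraries (1.13 to 1.67 times). Mcm7 was also above Rrm2 in all 6, by 1.00 to 1.55 times, and Rrm2 was above Rrm1 in 5 of 6. Lengths are those of the principal transcript. Cdc45 and Dtl led their role groups in the mean over all libraries, but in controls Gins1 (11.2 CPM per kilobase) was above Cdc45 (10.3) and E2f1 (12.6) above Dtl (12.3). Over all annotated exons, Uhrf1, Gins1 and E2f1 led in place of Slbp, Cdc45 and Dtl.

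Most of these genes differed between replicate numbers, with number 3 lowest in both groups for 26 of the 32, against 21.8% of all tested genes. The full order of the 3 numbers was the same in both groups for 18 of the 32, and for Cdc45, Pola1 and others numbers 1 and 2 changed places. In an edgeR quasi-likelihood F test of the replicate number, with genotype in the model, 23 of the 32 genes passed (adjusted p under 0.05), against 51.2% of all tested genes. For 23 of the 32 genes (71.9%) both number 3 libraries were below all 4 others, against 17.1% of all tested genes, and 21 of these 23 were among those called. The fitted log2 difference of number 3 over number 1 had a median of -0.47 over the 32 genes and was negative for 31 of them, where the median over all tested genes was -0.00. For number 3 over number 2 the median was -0.38, with 29 of the 32 negative, against 0.01 over all tested genes. Numbers 1 and 2 lay closer, with a median of -0.07 for number 2 over number 1. Since the pairing was read from these libraries, the test describes them and not a stated batch.

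The clearest differences between numbers were in Rrm2, Uhrf1, Mcm7, Pola1, Clspn and Mcm6, taken by smallest p. Rrm2 was lower in number 3 than in number 1 by a fitted log2 difference of -0.89 (edgeR F test, adjusted p = 5.33e-05). For Uhrf1 the difference was -0.83 (adjusted p = 8.12e-05) and for Pola1 it was -0.82 (adjusted p = 0.000165). These fitted values match the CPM given above, where both number 3 libraries of Uhrf1 and Pola1 stand apart. Clspn was at -0.79, Mcm7 at -0.60 and Mcm6 at -0.59, and all 3 were also lower in number 2 than in number 1 (-0.35, -0.39 and -0.19). Mcm6 had 108, 88.1 and 72.2 CPM in controls and 102, 93.7 and 68.7 CPM in knockouts 1 to 3. The 9 genes that did not pass were Orc1, Orc6, Gins1, Gins2, Ung, Chaf1b, Ccne1, Ccne2 and Dtl. Ung alone of the 32 was higher in number 3 than in number 1 (0.24), and its values of 6.34 to 10.1 CPM were among the lowest.

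The calls between numbers rested largely on number 3. Without the libraries of that number, 5 of the 32 genes (15.6%) passed, namely Mcm4, Mcm7, Clspn, Exo1 and Rrm2, against 30.3% of all tested genes. Without number 1 it was 20 of the 32 (62.5%) against 40.7%, and without number 2 it was 22 (68.8%) against 36.4%. By promoter, the 12 genes with the E2F letters had a median log2 difference of -0.59 for number 3 over number 1, and the 15 without them had -0.40. For number 3 over number 2 the medians were -0.45 and -0.37. With all numbers, 10 of the 12 and 11 of the 15 were called, against 51.2% of all tested genes. The difference between these sets was not tested.

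**Figure D3:**
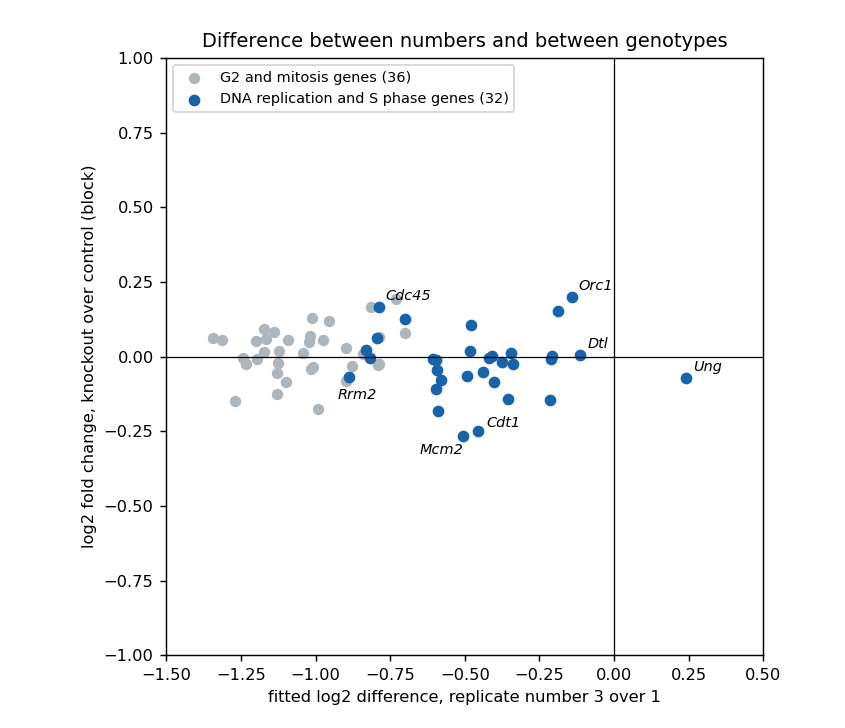
Fitted log2 difference of replicate number 3 over number 1 (x axis) against the blocked log2 difference of the knockout over the control (y axis) for the 32 DNA replication and S phase genes (blue) and 36 genes of G2 and mitosis (grey), with both axes to the same scale. The blue points spread from -0.89 to 0.24 along x and from -0.27 to 0.20 along y, and the grey points lie further left, from -1.34 to -0.70.

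Genes of G2 and mitosis, which are transcribed later in the cell cycle, differed between numbers in the same direction by more. All 36 genes of that list were called between numbers, and all 36 were lowest in number 3 of both groups. Their median log2 difference was -1.03 for number 3 over number 1 and -1.18 for number 3 over number 2. Summed, they stood at 2771, 3063 and 1186 CPM in controls and 2759, 2896 and 1435 CPM in knockouts 1 to 3. Thus the S phase sum was 0.695, 0.573 and 1.09 of the G2 and mitosis sum in control libraries 1 to 3, and 0.663, 0.580 and 0.966 of it in knockouts 1 to 3. The ratio was highest in number 3 of both groups. Top2a, the topoisomerase that untangles sister chromatids, was the most abundant of the list and differed by -1.17 between numbers 3 and 1 (edgeR F test, adjusted p = 3.59e-06), and Ube2c, a ubiquitin carrier of mitotic exit, by -1.27. By genotype with the block, 0 of the 36 were called, against 3.80% of all tested genes. In the same edgeR test 0 of the 36 had an unadjusted p under 0.05, against 2893 of all 15906 tested genes. DESeq2 and limma-voom called 0 of the 36 too. The median log2 fold change was 0.02.

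The other genes of the replication machinery are 81 in all. By genotype with the block, 0 of the 81 rose and 1 fell, against 1.57% and 2.23% of all tested genes. Between numbers 58 of the 81 (71.6%) were called, against 51.2% of all tested genes. The gene that fell was Dut, whose product breaks down dUTP so that uracil is kept out of DNA. Dut had 42.2, 45.5 and 36.3 CPM in controls and 34.1, 33.6 and 29.0 CPM in knockouts 1 to 3. Every knockout library was below every control library, as in 2.80% of all tested genes. The blocked log2 difference was -0.38 (SE 0.08 and edgeR adjusted p = 0.0291), and without the block it was -0.38 (SE 0.14 and edgeR adjusted p = 1.00). The call was lost without any pair (edgeR adjusted p = 0.0652, 0.120 and 0.0873 without number 1, 2 and 3).

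By role, the 81 genes hold 8 of licensing, 12 of helicase activation, 23 of strand synthesis, 10 of nucleotide supply, 10 of chromatin and 18 of S phase entry. Of these 5, 11, 12, 7, 9 and 14 were called between numbers. The share in strand synthesis (52.2%) was near the background of all tested genes. The other licensing genes departed from the rest, with a median log2 difference of -0.11 for number 3 over number 1, and 3 of the 8 lowest in number 3 of both groups. The most abundant per length were the histone chaperone gene Nasp (127 ± 19.7 CPM per kilobase in controls and 125 ± 12.4 in knockouts), the chaperone subunit gene Ssrp1 and the topoisomerase gene Top1. Blocked log2 fold changes by genotype were -0.04, -0.00 and -0.05 for Nasp, Ssrp1 and Top1, and none of the 3 passed. Their differences between numbers 3 and 1 were -0.35, -0.41 and -0.42. Among 68 replication-dependent histone genes listed, whose mRNAs mostly lack a poly(A) tail and are poorly captured by poly(A) selection, 17 passed the filter on low counts. These were looked up after other values had been seen. All 68 summed to 91.9 to 118 CPM in controls and 91.2 to 113 CPM in knockouts. By genotype 0 of the 17 passed edgeR's blocked test, against 3.80% of all tested genes. An unadjusted p under 0.05 was found in that test for 2 of the 17, against 2893 of all 15906 tested genes.

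**Figure D4:**
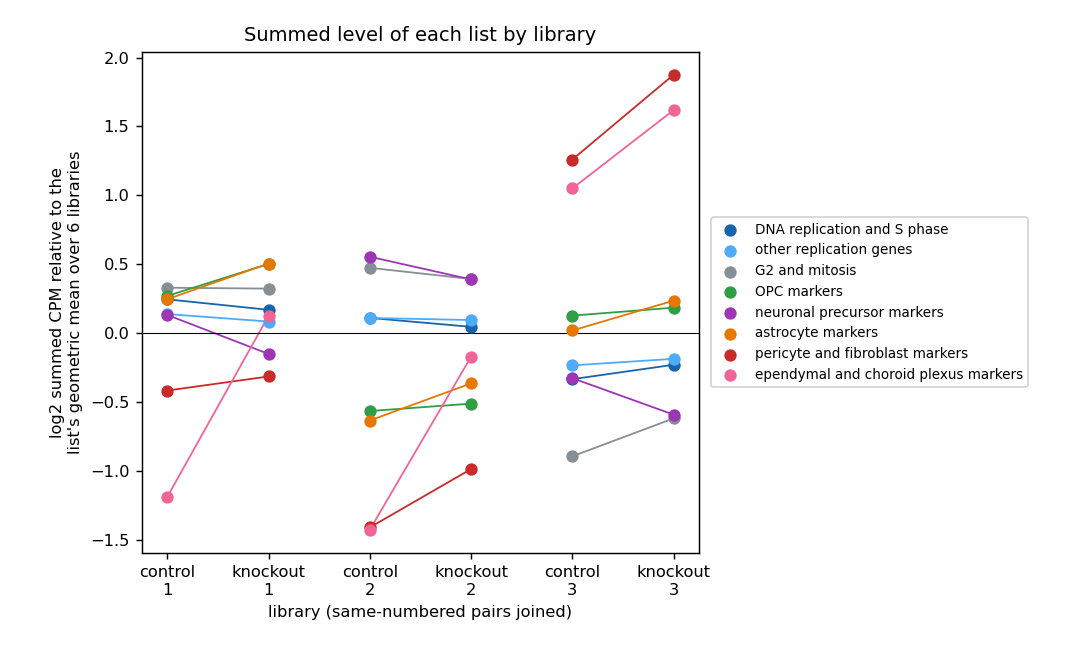
Summed CPM of each gene list in each library, as log2 of its ratio to the list's geometric mean over the 6 libraries, with same-numbered libraries joined. The S phase, replication and G2 and mitosis lists are lowest in both number 3 libraries (S phase sums of 1289 and 1386 CPM), where the pericyte and fibroblast markers (531 and 814 CPM) are highest. The ependymal and choroid plexus sum (1882 and 2792 CPM there) is nearly all Ttr (1756 and 2616 CPM).

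Markers of other cells also differed by number, and their part in the replication values was not tested. Pericyte and fibroblast markers (8 genes, all present in every library) summed to 531 and 814 CPM in number 3 and to between 83.4 and 178 CPM in the others, and all 8 were higher in both number 3 libraries than in the other 4. Of the 6 ependymal and choroid plexus markers, the choroid plexus genes Ttr, Folr1, Aqp1 and Kl were highest in both number 3 libraries. Ttr alone stood at 1756 and 2616 CPM there and at 246 to 817 CPM in the others. The ependymal genes Foxj1 and Ccdc153 were lower in number 3 than in number 1 (fitted log2 differences of -0.71 and -2.28). Without Ttr, the list summed to 126 and 176 CPM in number 3 and to between 55.7 and 174 CPM in the others. The sum of the neuronal precursor markers was lowest in number 3 of each group, at 2038 and 1696 CPM. Of the 11 genes, 7 were lower in both number 3 libraries than in all others. Neurod2, Neurod1 and Dcx were higher in number 3 than in number 1 (fitted log2 differences of 2.79, 0.22 and 0.12). Neurod2 was highest in number 3 of both groups (221 and 144 CPM). All 9 OPC markers were lower in number 3 than in number 1, with a median log2 difference of -0.52, and Olig2 (-1.36) and Sox10 (-0.87) differed most. Against number 2 the median was 0.61, with 2 of the 9 lower in number 3. Their sum, of which Ptprz1 made up the largest share, was lowest in number 2 (2141 and 2222 CPM), and it was so without Ptprz1 as well (808 and 705 CPM, against 1130 and 1068 CPM in number 3 and 1598 and 1751 CPM in number 1). Microglial markers (8 genes) were at 12.4 and 11.7 CPM in number 1 and at 170 to 231 CPM in the others. Myelin markers (7 genes, 6 of them tested) had a median log2 difference of -1.11 for number 3 over number 1. For number 3 over number 2 it was -1.46. Of the 6 tested, 5 were lowest in number 3 of both groups, while Mog was higher in number 3 than in number 1 (0.87).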

How the data were processed

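Each deposited value is an unnormalised whole-number count of read pairs for a gene symbol. Per the labels' protocols, poly(A) RNA was sequenced after removal of the U-labelled second strand. HISAT2 2.2.1, HTSeq 0.12.4, DESeq2 1.26.0 and mm10 appear, without roles, in the submitters' processing notes. The annotation and the strand setting of counting were not given in the sources used here, so overlapping genes, 8 of the 32 among them, are uncertain. The 5 summary entries of each table name no gene (29.7% of read pairs on average) and were left out.

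Genes kept by edgeR's expression filter (15906) entered edgeR 4.0.16 under R 4.3.3, where a quasi-likelihood model with TMM scaling was fitted, with Benjamini-Hochberg adjustment across that whole set. Genotype was the only term, and then the replicate number was added as a block, because the deviations of same-numbered libraries from their group means correlated across tested genes at 0.712, 0.682 and 0.654, each over 0.1. The second model gave the F test of the number. Residual degrees of freedom were 4 and 2. CPM use library totals, and fitted differences use TMM. The fits were tested on simulated data. Lengths and positions are from GENCODE M21 (GRCm38). Replicates of a group differed by more than sampling noise (chi-square per degree of freedom at least 54.5).

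The genes and lists were chosen with earlier results of these data known. Per-library values are given for genes called by genotype, the most abundant of each role and the 6 of smallest p between numbers, and for Cdt1, which was chosen after its values were seen. Other replication genes and genes of G2 and mitosis are named where called or among the most abundant. Alternatives were other scalings, filters, tests and thresholds, GC correction (15301 genes matched, 20 bins, with the block) and left-out libraries. No per-sample column was left unused (0).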

Additional observations from a re-analysis of the deposited data

Results flagged for a closer look

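For 3 of the 5 summary entries, which hold read pairs outside the gene counts, the shares in the knockouts all lay above those in the controls. Pairs in no gene made up 20.8% of read pairs in knockout and 19.7% in control libraries. Pairs of low alignment quality made up 3.83% and 3.11%, and unaligned pairs 1.25% and 1.03%. Their part in the Mcm2 and Dut values was not tested. With 3 libraries per group, no library could be tested as standing apart from its group.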

How the results depend on the processing

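Without the block, the 32 genes, the other replication genes and the genes of G2 and mitosis had 0 calls by genotype under all scalings, filters, tests, thresholds and left-out libraries. Over all genes the count was 0 there too, except with DESeq2 (20). With the replicate block, the count over all genes was 604, and it was 573 with DESeq2 size factors, 502 with library totals, 536 with upper quartile, 1034 with no filter, 435 at 5 CPM, 680 with DESeq2, 712 with limma-voom, 1102 at a threshold of 0.1, 370 after GC correction and 448, 521 and 174 without pair 1, 2 and 3. Library totals gave 271 rises and 231 falls, upper quartile 289 and 247 and GC correction 194 and 176, against 250 and 354 with TMM. The median over the 32 genes was -0.01 with TMM and above 0 with library totals (0.02), upper quartile (0.02), 5 CPM (0.01) and without pair 1 (0.01) or 2 (0.02). Among the 32 genes the blocked count was 1 (Mcm2) in each of these settings except library totals, 5 CPM and each left-out pair, where it was 0. Among the other replication genes it was 1 (Dut) in all except the left-out pairs, where it was 0. The genes of G2 and mitosis had 0 in all.

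Prrc2b passed in every blocked setting, at -0.41 with TMM, DESeq2 size factors, DESeq2, limma-voom and the threshold of 0.1, -0.39 with library totals, upper quartile and 5 CPM, -0.42 with no filter, -0.40 after GC correction and -0.47 to -0.35 with a pair left out. Its adjusted p was at most 0.0215 there, and 1.00 without the block, where leaving out a library gave -0.49 to -0.32. Between numbers, leaving out a number gave 5 to 22 calls among the 32 genes, 4839 to 6530 over all genes and 6 to 36 among the genes of G2 and mitosis, lowest without number 3 in each. The log2 ratio of the summed level, -0.02, ran from -0.18 to 0.10 with a library or a pair left out and was -0.05 with TMM, a scaling added after seeing the data. Differences that did not pass in either setting changed sign in 178 cases, which were not counted as reversals. With 3 libraries per group, the spread between them limits the precision.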
